A study of Mus musculus with 12 samples.

Results

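The change in 5-hydroxymethylcytosine (5hmC) between proliferating progenitors (PP) and differentiative progenitors (DP) was measured at all 47478 peaks of the 5hmC table, of 102563 peaks listed for 5hmC and 5-methylcytosine (5mC) together. A peak is a stretch of DNA, here 99 to 450 bp long with a median of 164 bp, that was enriched after immunoprecipitation. The change of a peak was its level in DP minus its level in PP, less the median of that difference over all peaks, so that 0 stands for the typical peak. Levels are log2 of the mean normalised reads of a cell type. A level of 3 stands for 8 normalised reads.

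Cells came from the cortex of E14.5 embryos of *Btg2*-RFP/*Tubb3*-GFP mice, which were heterozygous for both reporters. PP (*Btg2*-/*Tubb3*-) carried neither fluorescence, DP (*Btg2*+/*Tubb3*-) carried RFP alone, and neurons carried GFP with or without RFP. The 12 samples of the series are 6 immunoprecipitates and 6 inputs, and the comparison of PP with DP in 5hmC rests on 4 of them. DNA of the cell types was barcoded and mixed before the pull-down, so PP and DP shared a tube. The files give 1 mean per cell type and peak, so the spread between the 3 biological replicates and the reads behind each peak were not analysed here. The differences below are therefore descriptions without a test, and "rose" and "fell" mean that a peak passed a change of 1.5-fold in the means.

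5hmC is made from 5mC by the TET dioxygenases, and it is both an intermediate of active demethylation and a lasting mark in neural DNA, where it gathers in gene bodies and at distal regulatory elements. In the embryonic cortex, PP self-renew in the ventricular zone. DP are committed to produce neurons and transiently express *Btg2*, an antiproliferative factor, and *Eomes*, the T-box factor of intermediate progenitors. The comparison thus asks where the mark is remodelled at the step of neurogenic commitment.

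The expression values listed beside the peaks come from an earlier RNA-seq of the authors on these cell types, not from the samples described here. They do not measure the purity of the cells behind the 5hmC levels. The values fitted the sorted populations, although *Btg2* and *Tubb3* are the genes of the sorting reporters, so their fit is not independent. All 6 PP markers (*Pax6*, *Sox2*, *Hes1*, *Hes5*, *Nes* and *Vim*) had their highest expression score in PP, all 4 DP markers with a score (*Eomes*, *Btg2*, *Neurog2* and *Dll1*) had theirs in DP, and all 5 neuronal markers were highest in neurons. In that RNA-seq, PP had the higher sum for endothelial and mural markers, whose 12 scores summed to 2606 in PP and 891 in DP. The same held for the 10 scored microglia markers, at 498 and 304. DP had the higher sum for the 8 scored Cajal-Retzius markers, at 368 in PP and 2859 in DP. Of the 9 scored interneuron markers the sums were 7650 and 8078, and of the 9 oligodendrocyte lineage markers 2419 and 2671. None of these markers was listed at 0 in PP or DP, and the part of such cells in the 5hmC changes was not tested.

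Sequences are shown for peaks lying wholly within the 300-base windows around RefSeq gene starts of GRCm38.p6, the assembly called mm10. They are 3 peaks that rose and 3 that fell, since they let the CpG sites of opposite changes be compared directly, and CG pairs are in capitals. The peaks are chr9:121382653-121382809 at an alternative start of *Trak1*, chr8:48098918-48099058 at *Dctd*, chr3:122801936-122802162 at *4930447N08Rik*, chrX:143518506-143518627 at *Pak3*, chr17:24887280-24887473 at *Spsb3* and chr12:111417292-111417452 at *Exoc3l4*, read on the strand of each gene, with the listed starts taken as 1-based (they may be off by 1 base). The files give *Gm9364* and *1200009I06Rik* as the nearest genes of the *4930447N08Rik* and *Exoc3l4* peaks.
Trak1: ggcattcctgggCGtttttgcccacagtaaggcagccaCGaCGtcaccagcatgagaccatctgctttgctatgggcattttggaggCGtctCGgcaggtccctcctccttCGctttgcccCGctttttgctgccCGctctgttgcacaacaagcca
Dctd: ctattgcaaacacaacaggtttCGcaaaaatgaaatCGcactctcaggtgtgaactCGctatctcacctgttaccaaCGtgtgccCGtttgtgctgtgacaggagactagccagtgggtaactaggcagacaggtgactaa
4930447N08Rik: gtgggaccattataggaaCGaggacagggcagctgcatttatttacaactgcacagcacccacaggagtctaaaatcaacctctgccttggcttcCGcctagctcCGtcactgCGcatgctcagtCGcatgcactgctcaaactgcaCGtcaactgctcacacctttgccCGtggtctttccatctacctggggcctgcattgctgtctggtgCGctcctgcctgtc
Pak3: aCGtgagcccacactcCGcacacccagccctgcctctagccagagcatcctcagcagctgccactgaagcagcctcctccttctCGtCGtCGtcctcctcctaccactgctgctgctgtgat
Spsb3: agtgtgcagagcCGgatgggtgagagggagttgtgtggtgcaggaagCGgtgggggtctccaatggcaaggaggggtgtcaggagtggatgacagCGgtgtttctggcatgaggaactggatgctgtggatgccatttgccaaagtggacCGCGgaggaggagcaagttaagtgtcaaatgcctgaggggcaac
Exoc3l4: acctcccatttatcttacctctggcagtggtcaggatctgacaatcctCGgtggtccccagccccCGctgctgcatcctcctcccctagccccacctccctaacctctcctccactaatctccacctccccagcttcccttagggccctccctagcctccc

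*Trak1*, an adaptor of mitochondrial transport along axons, held 8 CpGs in this peak, and its 5hmC level was 1.84 (PP), 5.34 (DP) and 5.39 (neurons). At *Dctd*, which encodes dCMP deaminase, the peak held 5 CpGs and had levels of 0.34, 2.39 and 4.25 in the same order. The peak at *4930447N08Rik* had 8 CpGs and levels of 3.53, 4.86 and 6.07. These 3 peaks were lowest in PP, and neurons stood at or above DP. The peak over the start of *Pak3*, which encodes a p21-activated kinase of neurons, had 5 CpGs and levels of 4.74, 3.42 and 4.27. The *Spsb3* peak, also with 5 CpGs, had levels of 4.79, 3.94 and 4.54, and the *Exoc3l4* peak, with 2 CpGs, had 4.27, 3.42 and 3.80. The 3 falling peaks were thus lowest in DP, and their level in neurons lay between those of DP and PP.

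The change was lopsided towards a gain. Of all peaks, 5332 rose (11.2%) and 2220 fell (4.68%), which is 2.40 rising peaks for each falling one, whereas 39926 (84.1%) stayed between the limits. At a change of 2-fold the excess was larger, with 2408 rises (5.07%) against 266 falls (0.56%), or 9.05 to 1. The median peak had a level of 4.72 in PP and 4.71 in DP. The change had an SD over peaks of 0.53, its 5th and 95th percentiles were -0.57 and 1.01, and it ran from -2.22 to 8.63, the latter from the lowest level listed for PP. The 5mC table, processed in the same way for the same cells, had a narrower change, with an SD of 0.37, 2535 rises and 2994 falls. With the mean subtracted in place of the median, 9.57% rose and 6.89% fell, so that the excess of rises was smaller. Rising 5hmC peaks lay nearest to 3429 genes and falling peaks to 1911 genes, of 12848 in all, and 664 genes had both. At the limits, the last peaks inside had changes of 0.585078 and -0.585123, and the first outside 0.584943 and -0.584903.

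**Figure D1:**
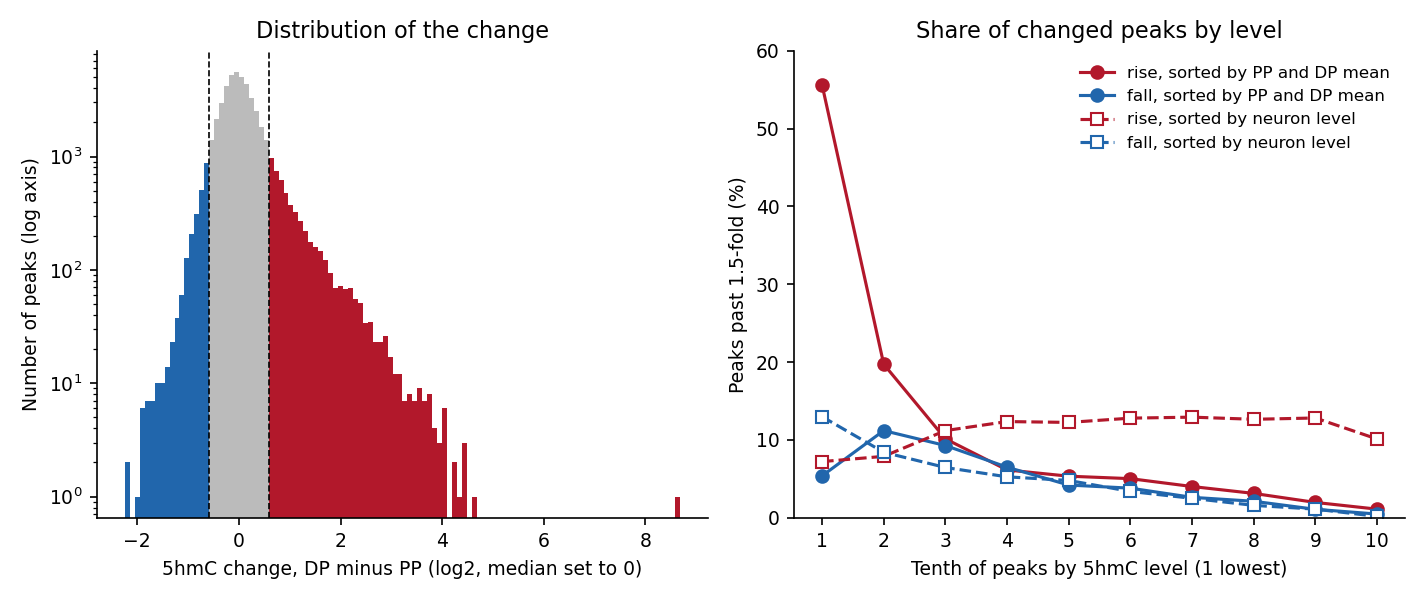
Left, number of peaks (log axis) by 5hmC change from PP to DP in log2 with the median set to 0. Dashed lines mark a change of 1.5-fold, red bars are rises and blue bars falls, and the rising side reaches 8.63 whereas the falling side ends at -2.22. Right, share of peaks past 1.5-fold in each of 10 groups of peaks by 5hmC level, sorted by the mean of PP and DP (filled circles) or by the level in neurons (open squares). Rises reach 55.6% in the lowest group of the first sorting and stay between 7.22% and 12.9% in the second.

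The PP level is part of the change, so a low level in PP among rising peaks is a description of the values that define them. Their median level was 3.33 (PP), 4.37 (DP) and 4.82 (neurons), and 38.9% of them were under a level of 3 in PP. By the same construction, of the 2597 peaks under that level in PP, 2072 (79.8%) rose and 38 fell. Falling peaks began from a typical level, with medians of 4.73 (PP), 3.97 (DP) and 4.32 (neurons), and 5.90% of them were under 3 in DP. Levels in neurons took no part in the change, but peaks found only in neurons are listed too, so they are no independent reading. Rising peaks were on average higher still in neurons, whereas falling peaks stood between DP and PP. Neurons stood above DP at 76.4% of rising, 75.9% of falling and 48.0% of all peaks. Where the higher level of PP and DP was at or above its median, it was 58.3%, 72.6% and 37.1%.

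With the peaks sorted into 10 groups by the mean of PP and DP, 55.6% rose in the lowest group, against 1.12% in the highest, and 5.39% and 0.48% fell. That sorting uses the compared values, and low means leave more room for a change. Sorted by the level in neurons, 7.22% rose and 617 of 4748 fell in the lowest group, and 10.1% rose and 0.19% fell in the highest. A peak entered the table if it was found in any cell type, so that peaks found in DP or neurons but not in PP were bound to be low in PP. Among the 23740 peaks whose higher level of PP and DP was at or above its median of 4.84, 1296 rose (5.46%) and 840 fell (3.54%). This filter uses the compared values too, since a rising peak passes it by its DP level and a falling one by its PP level. Peaks that pass are called better covered below, which holds for the higher of PP and DP only. They give no independent check of the shares. Their median levels were 4.33 (PP), 5.19 (DP) and 5.39 (neurons) where they rose, and 5.11, 4.39 and 4.62 where they fell. The lowest level listed for PP, -0.05, was shared by 105 peaks, of which 100 rose. Their folds depend on that floor and are not given as bounds.

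With respect to genes, rises were more frequent inside gene bodies than upstream or downstream of them. Of 17176 peaks inside a gene 2231 rose, of 10165 downstream 1156 (11.4%), and of 20002 upstream 1927 (9.63%), whereas the share that fell was 4.66%, 4.58% and 4.74%. Inside genes the share of rises was 8.23% up to 1 kb from the start, 12.4% at 1 to 5 kb, 13.8% at 20 to 50 kb and 15.3% at 50 to 100 kb, and 214 of 1783 peaks rose beyond 100 kb. Upstream it ran from 7.71% within 1 kb to 10.5% at 20 to 50 kb. The share of falls varied less, between 4.54% and 5.27% inside genes. By these distances, peaks within 1 kb of the start thus rose least often, both inside and upstream. Peaks lying over the start did not follow this, as 14 of 101 rose (13.9%) and 4 fell. Of the 385 peaks touching a RefSeq start window, 58 rose (15.1%) and 13 fell. At the better covered peaks 6.74% rose inside, 5.46% downstream and 4.42% upstream, in the same order, and 1 of 49 over the start.

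The X chromosome stood apart from the autosomes. Its 1009 peaks had a median change of -0.13, 22 rose (2.18%) and 84 fell (8.33%). The 19 autosomes had medians between -0.02 and 0.03, with 9.46% to 12.6% of peaks rising and 3.75% to 5.24% falling. At the 552 better covered peaks of the X the median was -0.15, with 8 rises and 28 falls. Narrow peaks rose more often, with 20.4% in the narrowest of 5 width groups (99 to 142 bp) and 7.31% to 10.7% in the others. The narrowest group also had the most falls, 6.90%, and the lowest median level in PP, 4.37 against 4.75 to 4.84. Width and level were not separated.

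Where a 5hmC peak overlapped a 5mC peak by at least 1 bp, rises were more frequent. Of 6725 such peaks 21.4% rose and 3.32% fell, against 9.56% and 4.90% of the 40753 others, and at the better covered peaks the shares of rises were 11.6% and 4.44%. The 5mC change, which comes from another pull-down, differed with the 5hmC change. Of the 752 overlapping peaks whose 5hmC rose at least 2-fold, 71.8% had less 5mC in DP than in PP, with a median 5mC change of -0.19. Of the 684 that rose 1.5- to 2-fold it was 63.6%, with a median of -0.12, and of the 5066 between the limits 52.4%, with a median of -0.02. At falling peaks the 5mC change was not of 1 sign, with 45.7% of 188 and 62.9% of 35 lower in DP. The median 5mC level in PP was 5.29 at the 2-fold rising peaks and 5.20 at the peaks between.

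**Figure D2:**
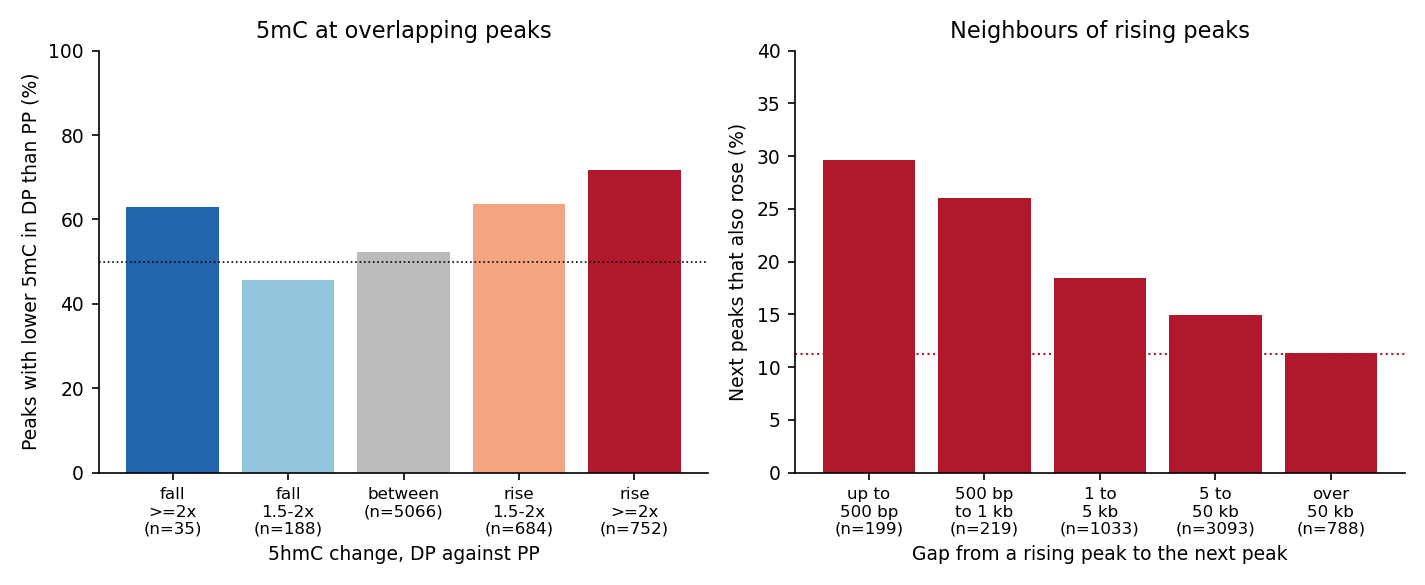
Left, share of 5hmC peaks overlapping a 5mC peak whose 5mC was lower in DP than in PP, by 5hmC change, with the number of peaks below each bar and a dotted line at equal shares. It is 71.8% at 2-fold rising and 52.4% at peaks between the limits. Right, share of rising peaks whose next peak along the chromosome also rose, by the gap to it, with the number of rising peaks below each bar and the share of all peaks that rose as a dotted line. It falls from 29.6% within 500 bp to 11.3% beyond 50 kb.

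Rising peaks lay near other rising peaks. Of 199 rising peaks with the next peak within 500 bp, 59 (29.6%) had a next peak that also rose, and at 500 bp to 1 kb it was 57 of 219 (26.0%). The share was 18.5% at 1 to 5 kb, 14.9% at 5 to 50 kb and 11.3% beyond 50 kb, close to that of all peaks. Adjacent peaks share their libraries and, at small gaps, some of the same sheared fragments.

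The change was next set beside the expression of the nearest gene, as log2 of the scores plus 1. Of the 2477 peaks of genes whose expression was at least 4-fold higher in DP than in PP, 15.5% rose, whereas it was 7.97% of the 728 peaks of genes at least 4-fold lower. The classes between followed in order, with 9.43% and 9.59% at genes lower in DP, 11.1% at genes within 1.4-fold, and 12.6% and 13.1% at genes higher in DP. The share of falling peaks was 3.57% to 4.98% over the 7 classes and followed no such order. Inside genes the shares of rises ran from 8.20% in the lowest class to 19.5% in the highest, upstream from 8.24% to 12.4%, and downstream from 6.09% to 13.3%. Where a 5mC peak was overlapped they ran from 15.8% to 29.8%, and elsewhere from 6.51% to 13.2%.

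Per gene, 43.4% of the 442 genes at least 4-fold higher in DP had a rising peak, against 21.3% of the 202 at least 4-fold lower and 26.7% of all 12845 genes counted once per peak. These genes also had more peaks, 5.61 on average against 3.65. The median change over the peaks of a gene, which does not grow with their number, was above 0 in 56.8% of the genes higher in DP and 43.6% of those lower. The medians of these gene medians were 0.03 and -0.03, so that the typical peak hardly moved in either class and the classes differed in a minority of peaks. At better covered peaks 7.87% and 3.83% of peaks rose, but the difference in gene medians above 0 turned from 13.2 to -3.47 percentage points. By the level of expression the shares differed less, with 10.6% of peaks rising in the lowest eighth of mean score and 13.7% in the highest.

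**Figure D3:**
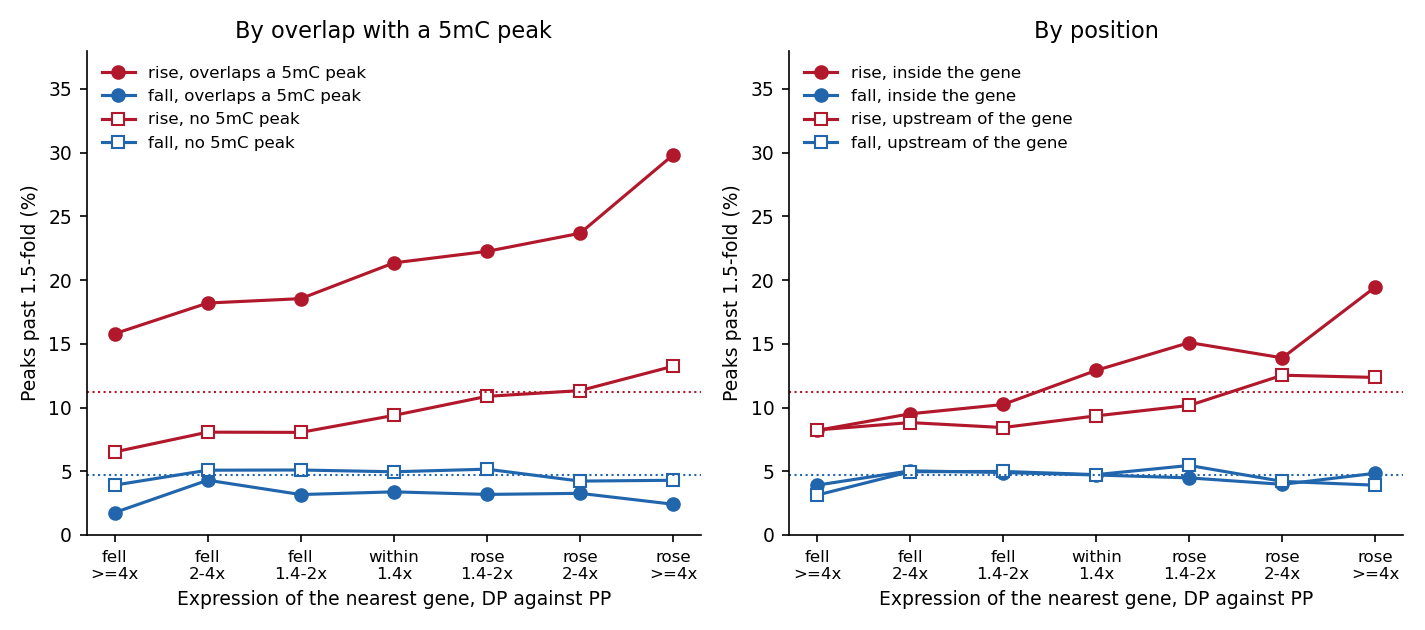
Share of peaks past 1.5-fold (red, rise and blue, fall) in 7 classes of the expression of the nearest gene in DP against PP. Left, peaks that overlap a 5mC peak (filled circles) or do not (open squares), and right, peaks inside (filled circles) or upstream of the gene (open squares), with dotted lines for all peaks. Rises go from 15.8% to 29.8% at peaks overlapping a 5mC peak, and falls show no such order.

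Genes of neurogenic commitment had more rising peaks than the table as a whole. This list, like the others, was chosen with earlier results of these data known. *Eomes*, *Dll3* and *Tcf4*, with 2, 1 and 5 rises, are named in the paper among genes near loci that gained 5hmC. The excess is therefore a description and no independent reading. Of the 158 peaks nearest to 26 of 30 listed genes, 39 rose (24.7%) and 7 fell (4.43%), against 11.2% and 4.68% of all peaks, and the median change was 0.10 against 0. The rises lay at 18 of the 26 genes, and 23 of the 26 had at least 2-fold more expression in DP. At better covered peaks 13 of 88 rose, against 5.46% of all such peaks. Inside these genes 21 of 48 peaks rose, against 2231 of 17176 inside all genes.

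*Btg2*, whose reporter defined the DP sort, had 11 peaks, of which 5 rose and none fell. The peak inside the gene, 3.31 kb from its start (chr1:134075745-134075880), had levels of 5.15 (PP), 6.39 (DP) and 7.0 (neurons), a change of 1.24. A peak 6.06 kb from the start, downstream of the gene, had levels of 5.09, 6.36 and 6.73, and another 18.9 kb away had 2.85, 4.12 and 5.42. Upstream at 7.88 kb, levels of 3.85, 5.10 and 6.57 gave a change of 1.26. The rises of these 4 peaks were alike, at 1.24 to 1.27, although their levels in PP were not. The fifth, at 7.86 kb downstream, rose by 0.77. The peaks with the most 5hmC moved little, and the one 4.19 kb upstream had levels of 8.71, 8.89 and 9.14. The peak nearest to the start, at 0.86 kb, had 6.10 in PP and 6.09 in DP.

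*Eomes* had 3 peaks, all inside the gene. The peak 5.57 kb from the start (chr9:118483712-118483847) had levels of 1.99 (PP), 3.99 (DP) and 5.14 (neurons), a change of 2.00, and that at 6.18 kb had 1.65, 3.46 and 5.07, a change of 1.81. The peak at 4.95 kb, already at 5.61 in PP, stood at 5.54 in DP and 5.31 in neurons. *Sstr2*, a somatostatin receptor whose expression score was 948 in PP and 12327 in DP, was singled out after its values were seen because all its 10 peaks had changes above 0, of which 4 rose. Its strongest rise, 67.1 kb upstream, went from 1.65 in PP to 4.10 in DP and 5.06 in neurons, and the peak 2.54 kb inside went from 3.28 to 4.26 and 4.86.

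Among the other commitment genes, *Tcf4*, an E-protein partner of proneural factors, had 5 rising peaks and 1 falling of 15, with changes of -0.88 to 1.61. *Mfng*, a glycosyltransferase that modifies Notch receptors, had 4 rising of 6, and its levels at a peak 18.7 kb downstream were 3.85 (PP), 4.96 (DP) and 4.06 (neurons). *Plxna2*, a semaphorin receptor, had 3 rising of 16. *Dll3*, *Hes6*, *Insm1* and *Gadd45g* had 1 rising peak each. The single peaks of *Neurog2* and *Neurod4*, proneural bHLH factors, had changes of -0.11 and 0.18, and *Neurod1* and *Dll1* were the nearest gene of no peak. *Nhlh1*, with 9 peaks, had changes from -0.41 to 0.49 and none past the limit, although its expression score was 328 in PP and 5329 in DP. The falls were at *Myt1* (5.05 in PP and 4.24 in DP, 15.6 kb upstream), *Sox11* (5.04 and 4.31, 112 kb upstream) and 5 other genes with 1 falling peak each.

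**Figure D4:**
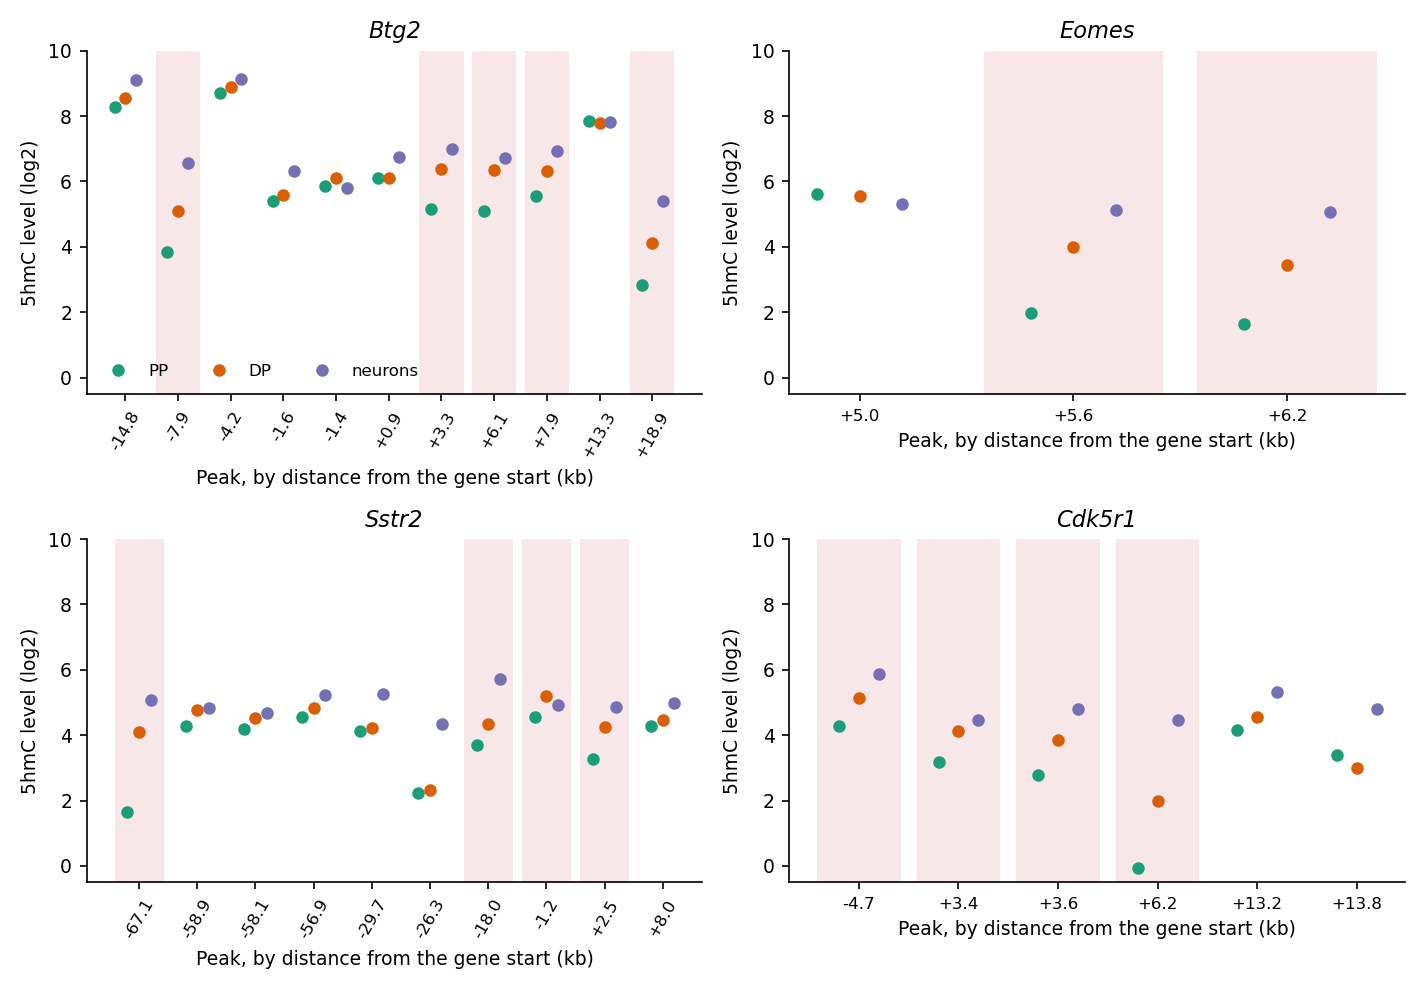
5hmC levels (log2) in PP, DP and neurons at each peak of 4 genes, ordered along the gene and labelled by the distance from its start in kb (negative, upstream). Each point is the mean of a cell type, and shaded peaks rose past 1.5-fold. *Btg2* rose at 5 of 11 peaks, *Eomes* at 2 of 3, *Sstr2* at 4 of 10 and *Cdk5r1* at 4 of 6.

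The Notch pathway, through which committed cells keep their neighbours in the progenitor state, had 22 rising (20.4%) and 4 falling (3.70%) of 108 peaks at 25 genes, against 11.2% and 4.68% of all peaks, with a median of 0.08. At better covered peaks 6 of 56 rose, against 5.46% of all such peaks. Some of its genes, such as *Mfng*, *Dll3* and *Hes6*, are also on the list of commitment genes. Among receptors, *Notch1* had no rise and 1 fall of 2 peaks, *Notch2* had neither at 10 peaks, with -0.51 at 20.4 kb upstream, and *Notch3* had 1 rise of 4, of 3.02. Of the ligands, *Jag1* had 2 rises of 6 and *Dll3* 1 of 3. *Numbl*, an inhibitor of Notch signalling, had 3 rises and 1 fall of 5 peaks. Its strongest rise, 2.49 kb inside the gene, went from 3.81 in PP to 4.91 in DP and 5.25 in neurons, and the fall, 6.12 kb inside, from 5.69 to 5.10 and 5.56. The nuclear partners *Rbpj* and *Maml3* had 2 rises of 7 and 3 of 12, and the targets *Hes1* and *Hes5* none of 4 and 1. *Dtx1*, an E3 ligase that acts on Notch and was singled out after its values were seen, had changes of 0.23 to 0.97 at its 7 peaks, of which 3 rose.

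Apical progenitor genes, 14 of whose 25 genes with a peak had at least 2-fold less expression in DP, were close to the table as a whole. Of their 147 peaks 18 rose (12.2%) and 6 fell (4.08%), against 11.2% and 4.68% of all peaks, with a median change of 0.00. The share of rises differed from that of all peaks by 1.01 percentage points, and by -2.35 at 2-fold. *Sox2*, a factor of stem cell maintenance, held 8 of the rises among 22 peaks, all 49.1 to 323 kb downstream of it. The rise with the highest level, 251 kb away (chr3:34901379-34901552), went from 4.58 in PP to 5.49 in DP and 5.78 in neurons, and the falling peak, 186 kb away, from 4.46 to 3.65 and 1.80. The nearest gene of such distant peaks need not be their target. The peaks of *Pax6*, 17.7 and 40.3 kb upstream, had changes of 0.49 and 0.51. *Ddah1*, an enzyme of dimethylarginine breakdown, rose 18.6 kb inside the gene from 4.80 to 5.79. *Ednrb*, an endothelin receptor, fell by 0.93 from 5.63 at 290 kb upstream, and *Mfge8*, a secreted phagocytosis factor, 45.1 kb upstream from 4.92 to 3.99. *Slc1a3*, the glial glutamate transporter GLAST, had a lowest change of -1.43 among 9 peaks.

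Newborn neuron genes had 22 rising (10.3%) and 9 falling (4.21%) of 214 peaks at 22 genes, near the 11.2% and 4.68% of all peaks, with a median of -0.08. *Rbfox1* alone held 67 of these peaks, with 8 rises and 2 falls. At better covered peaks of the list 5 of 113 rose and 6 fell, against 5.46% and 3.54% of all such peaks. Of the 22 genes, 13 had at least 2-fold more expression in DP. *Tubb3*, the source of the neuronal reporter, had 4 peaks with changes of -0.36 to 0.27, and the 1 at 0.91 kb upstream had levels of 3.03 (PP), 3.30 (DP) and 5.72 (neurons). *Myt1l*, a repressor of non-neuronal genes, rose at 3 of 18 peaks, from 4.35 in PP to 5.48 in DP and 6.08 in neurons at a peak 118 kb upstream. *Bcl11b*, a factor of corticospinal neurons, fell at 3 of 20, from 6.49 to 5.78 and 4.77 inside the gene, and *Nfix* fell at 2 of 7 and rose at 1. A second *Myt1l* peak, 19.2 kb inside the gene, rose from 4.38 to 5.21 and 6.02. *Neurod6* at 6 peaks and *Nfib* at 6 had none past the limits.

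Genes of cytosine modification had 4 rising (5.88%) and 5 falling (7.35%) of 68 peaks at 21 genes, against 11.2% and 4.68% of all peaks, with a median of 0.03. *Mbd2* alone held 24 of these peaks, with 2 rises and 2 falls. With so few peaks called, the list is not set apart from the table. *Tet3*, which encodes a TET dioxygenase, rose at 1 of 8 peaks, 38 kb inside the gene, from 3.59 in PP to 4.52 in DP and 5.10 in neurons. The peak of *Tet1* had a change of 0.37 and those of *Tet2* -0.34 and -0.28. *Smug1*, a glycosylase that removes hydroxymethyluracil and uracil, fell 9.97 kb upstream from 4.93 to 3.66, and *Zbtb38*, a methyl-CpG reader, 29.3 kb upstream from 5.09 to 4.25. *Apobec2* rose 0.50 kb upstream from 3.14 to 4.94 and 6.23 in neurons, with an expression score of 5.2 in PP and 7.6 in DP. *Dnmt3a*, a de novo methyltransferase, had changes of -0.02 to 0.55.

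**Figure D5:**
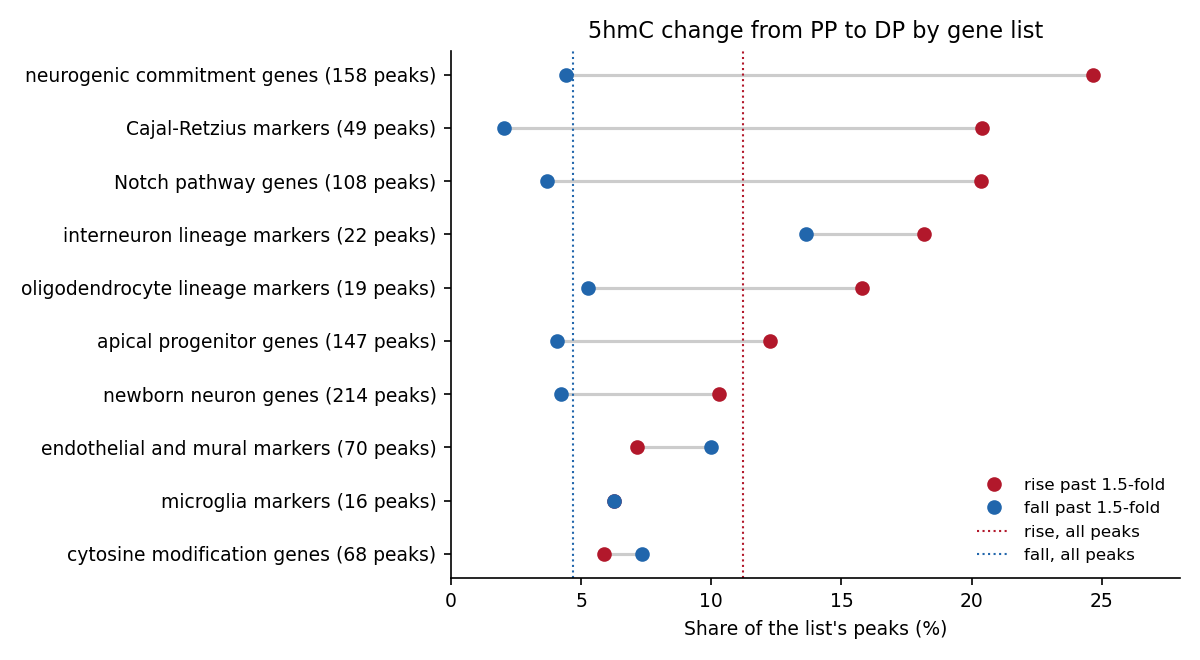
Share of the peaks of each gene list that rose (red) or fell (blue) past 1.5-fold from PP to DP, with the number of peaks in brackets and dotted lines for all peaks. Commitment genes have the highest share of rises, 24.7%, and cytosine modification genes the lowest, 5.88%. The lists were chosen with earlier results of these data known.

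Among all peaks with a higher level of PP and DP of at least 4.84, the strongest rises were from near the floor of PP. *Pak3* came first, with a peak 35.5 kb upstream that is described among the other observations. *Cflar*, an inhibitor of caspase 8, followed with levels of 0.35 (PP), 5.01 (DP) and 5.39 (neurons), 25.5 kb inside the gene, where a 5mC peak had a change of -1.05. *RP23-459I1.1* had 0.67, 4.98 and 4.95, and *Dagla*, which makes the endocannabinoid 2-arachidonoylglycerol, 0.90, 5.15 and 3.85. *Gm11749* had 0.94, 5.02 and 5.67, and *Dusp5*, a phosphatase of ERK, 0.96, 5.02 and 5.86. The expression scores in PP and DP were 3654 and 5420 for *Pak3*, 1091 and 1358 for *Cflar*, 48.6 and 32.7 for *RP23-459I1.1*, 526 and 575 for *Dagla*, 2.9 and 29.6 for *Gm11749*, and 157 and 156 for *Dusp5*. *Gm11749* alone of the 6 differed by more than 2-fold, at low scores.

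The strongest falls were smaller. *Erbb2*, a receptor tyrosine kinase of the neuregulin pathway, went from 4.98 in PP to 2.97 in DP and 3.89 in neurons, 3.38 kb upstream (chr11:98409013-98409164), with expression scores of 3234 and 1253. *Gm14117* had 4.86, 2.92 and 1.60, *Setbp1* 5.46, 3.68 and 0.32, and *BC027231* 5.56, 3.81 and 2.85. *Gm12735* had 5.55, 3.89 and 4.13 over its start, and *Afap1l2* 4.91, 3.41 and 4.22. The scores in PP and DP of the others were 196 and 164 for *Gm14117*, 25234 and 27898 for *Setbp1*, 1940 and 1472 for *BC027231*, 14.7 and 9.7 for *Gm12735*, and 72.6 and 73.5 for *Afap1l2*. In 3 of the 6, at *Gm14117*, *Setbp1* and *BC027231*, the level was lower again in neurons.

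Of the 2393 genes with at least 6 peaks, *Snrpa1*, a component of the U2 small nuclear ribonucleoprotein, had the highest median change, 1.27. Its 8 peaks all lay 16.7 to 97.4 kb upstream, and 5 of them rose, the strongest from the floor of -0.05 in PP to 3.99 in DP and 4.25 in neurons. *Adcyap1r1*, the PACAP receptor, had a median of 0.93, and 3 neighbouring peaks 7.82 to 8.39 kb inside the gene had levels of 0.93, 1.33 and 1.99 in PP against 3.55, 4.38 and 3.18 in DP. *Cdk5r1*, the p35 activator of CDK5 in neurons, had a median of 0.91 and rose at 4 of 6 peaks, as at 3.44 kb inside with 3.19 (PP), 4.13 (DP) and 4.48 (neurons). *Gm15658* and *Gm12409* completed the 5 highest medians, at 0.96 and 0.91. The expression scores in PP and DP were 2233 and 2098 for *Snrpa1*, 80.3 and 48.2 for *Gm15658*, 3442 and 11319 for *Adcyap1r1*, 0.6 and 1.9 for *Gm12409*, and 1255 and 6059 for *Cdk5r1*. The 5 genes thus had no common direction of expression.

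The 5 lowest medians were nearer to 0. *Gm7935* had -0.51, *Inhba*, an activin subunit, -0.47, *Gm3985* -0.47, *Sv2c*, a synaptic vesicle protein, -0.45, and *Gm10029* -0.43. Each had 2 or 3 falling peaks. At *Inhba* 5 of 6 peaks lay below 0, such as a peak 115 kb upstream with 4.83 (PP), 4.14 (DP) and 4.14 (neurons), and at *Sv2c* 6 of 7, such as 1 at 78.4 kb upstream with 4.97, 4.06 and 4.23. The expression scores in PP and DP were 1044 and 976 for *Gm7935*, 4.3 and 4.9 for *Inhba*, 21.8 and 10 for *Gm3985*, 48.3 and 45.4 for *Sv2c*, and 40.2 and 45 for *Gm10029*. Over all genes, 437 had at least 3 rising peaks and 47 at least 3 falling peaks.

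Of the 385 peaks that touched a RefSeq start window, 15.1% rose and 3.38% fell, against 11.2% and 4.68% of all peaks. Sequences were compared for the 213 of them that overlapped a window by at least 100 bases, of which 34 rose and 9 fell. Rising peaks held a median of 3.54 CpGs per 100 bases, against 2.62 in the 170 peaks between the limits, 2.58 in falling peaks and 1.97 in the middle 152 bases of all 32851 windows. Their GC content was 55.0%, against 54.8% between the limits. The E-box CANNTG, the core bound by bHLH factors, was found in 26 of the 34 rising peaks (76.5%), 74 of 170 between (43.5%), 6 of 9 falling and 48.6% of all windows. CAGATG, searched on both strands, was in 9 rising peaks (26.5%), 13 between (7.65%), 1 falling and 8.92% of all windows. CAGCTG was in 7 rising (20.6%), 12 between (7.06%), 1 falling and 8.30% of all windows. Both are cases of CANNTG. Rising peaks had a median level of 3.17 in PP and those between 5.01. Of the sequences printed above, the *Trak1* peak holds CAGATG on the opposite strand, the *4930447N08Rik* and *Pak3* peaks hold CAGCTG, and the *Exoc3l4* peak holds no CANNTG. These peaks are a small and start-near sample of the table, and a match is not a bound site.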

How the data were processed

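5hmC was profiled by hMeDIP in PP and DP of the E14.5 mouse cortex. Per the submitters' processing notes and methods, reads were aligned to mm10 with BWA, peaks were called with SICER version 1.1, those found in all replicates of a cell type were merged over cell types without repeats, and HOMER version 4.7 gave the nearest gene. The authors deposited levels as log2 of the mean TMM-normalised reads of a cell type (DiffBind). The deposited expression values are a score from their earlier RNA-seq whose scale is not named, and the distance to the gene start is listed by the authors as a score in bp. Because the scale is not named, scores of single genes were not set against each other. The scores of marker genes were summed per cell type, however, and in these sums the genes with the highest scores weigh most. Peaks were grouped by level and by the mean score of the nearest gene only to give shares. Columns of the authors' folds and p-values for pairs of cell types, and of expression folds with adjusted p-values, were not used. Input signal, replicate values and depth per sample were not analysed here, so no error is given for a level.

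All rows were used, the median difference was subtracted, and peaks past 1.5-fold were counted. Peaks listed more than once (5 rows) were taken once for genes and lists. Symbols such as 7SK cover several genes, and their first score was used. Named genes were the 6 largest rises and falls at peaks with a level of at least 4.84, the 5 highest and lowest medians of genes with at least 6 peaks, the 2 largest rises and falls of 5 lists, and 13 genes named in any case. *Sstr2*, *Dtx1*, *Tcf4*, *Plxna2*, *Nhlh1* and other members given by counts were added after their values were seen. Members and lists were chosen with earlier results of these data known. Counting was tested on simulated data. Python 3.11.15, pandas 2.3.3 and matplotlib 3.10.9 were used.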

Additional observations from a re-analysis of the deposited data

How the results depend on the processing

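No paired analysis was possible because the files hold 1 mean per cell type and no replicate values, and no replicate could be left out for the same reason. Reading 200 bases around each peak centre was not run, since no genome was used here. Of 41 alternative values, 24 stayed within the 95% interval of the value reported (exact binomial, or combined for a difference, over peaks or genes, which are not independent), 14 moved and 3 changed sign. The 3 settings for overlap with 5mC were chosen after seeing the data. Over all peaks, 11.2% rose and 4.68% fell. Subtracting the mean gave 9.57% and 6.89%, 2-fold gave 5.07% and 0.56%, and the peaks with higher levels gave 5.46% and 3.54%. Peaks at least 200 bp wide gave 3.51% falls. The lowest of 10 groups by level had 54.5 percentage points more rises than the highest, and -2.91 when sorted by the neuron level. Inside against upstream, the difference of 3.36 points was 2.32 at higher levels. For genes 4-fold higher against 4-fold lower in DP, the share of gene medians above 0 differed by 13.2 points. It differed by 24.1 with a pseudocount of 10 and by -3.47 at higher levels. With 1 value per peak in place of gene medians, the share above 0 differed by 4.68 points. The share of rising peaks differed by 7.50 points, by 10.8 inside or within 10 kb and by 4.05 at higher levels. Commitment genes exceeded all peaks by 13.5 points and by 5.69 at 2-fold, and apical progenitor genes by 1.01 and by -2.35 at 2-fold. Overlap with a 5mC peak added 11.8 points, 7.15 at higher levels and 10.6 inside genes. The causes of these shifts were not tested. The tables used here give neither read counts per sample nor replicate values, so no counting error could be set beside changes at low levels.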

Other observations

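The largest change of the table was at a peak 35.5 kb upstream of *Pak3* on the X chromosome (chrX:143483006-143483107), whose 5hmC level was -0.05 (PP), 8.57 (DP) and -0.05 (neurons). Both low values are the lowest levels listed for those cell types. A 5mC peak overlapped it by 100 bp, with a 5mC level of 9.52 in PP and a 5mC change of 0.38 towards DP. Of all 47478 peaks, 2 stood at least 8-fold higher in DP than in both other cell types. The other was 4.94 kb downstream of *AY036118*, with levels of -0.05, 4.34 and -0.05, and no 5mC peak overlapped it. Both were seen first and then counted.

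Of the 2393 genes with at least 6 peaks, 27 had all their changes above 0 and 16 all below. *Bcar1*, an adaptor of integrin signalling, had 8 peaks above 0, of which 5 rose, with levels of 3.65 (PP), 4.79 (DP) and 5.48 (neurons) at 2.23 kb inside the gene. *Nrxn2*, a presynaptic adhesion protein, had 6 peaks above 0 with a median of 0.74, and *Gpc1*, a heparan sulphate proteoglycan, 6 with a median of 0.49 and expression scores of 26709 and 18376. *Schip1* had 8 peaks below 0 with a median of -0.36, and its expression score was 4163 in PP and 984 in DP. *Kcnc2*, a potassium channel, had 6 below 0 with a median of -0.36 and scores of 43 and 159. Genes at either end thus included some with more and some with less expression in DP.

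The lists of other cell types were small. Cajal-Retzius markers had 10 rising (20.4%) and 1 falling of 49 peaks, of which 6 rises were at *Ebf3* and 3 at *Barhl2*. Endothelial and mural markers had 5 rising (7.14%) and 7 falling of 70. Interneuron markers had 4 and 3 of 22, oligodendrocyte lineage markers 3 and 1 of 19, and microglia markers 1 and 1 of 16. All peaks together had 11.2% and 4.68%.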
